A study of Homo sapiens with 6 samples.

Results

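ZNF genes, the human genes whose symbols start with ZNF and a number, were followed across the lists of highly and lowly expressed genes deposited for SiHa cells. The members were the rows of either list whose symbol matched that pattern. There were 121 of them among 8946 listed symbols, of which 32 were high and 89 low, and none stood on both lists. SiHa is an established cell line from a squamous cell carcinoma of the cervix. The study compared cells that had crossed a transwell membrane after 10 hours (migrated, 3 libraries) with cells that had not (non-migrated, 3 libraries), both from the same line, with the wells of a plate pooled before RNA was taken. The study's title concerns a chromatin state low in SUV39H1, an enzyme that methylates histone H3 at lysine 9 (H3K9).

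Most ZNF genes encode proteins with a row of C2H2 fingers, each a short loop held by a zinc ion between cysteines and histidines, which together read a DNA sequence. Many of these proteins also carry a KRAB domain, which binds the corepressor TRIM28 and through it recruits H3K9 methylation, HP1 proteins and DNA methylation. Genes of the KRAB type have multiplied by local duplication and lie in dense clusters, above all on chromosome 19, and the clusters themselves are known to be coated with H3K9 trimethylation. A share of the younger KRAB proteins represses retrotransposons.

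The 6 libraries of the deposited expression table held 18226280 to 33466924 assigned fragments each; its index of libraries could not be matched to the labels' replicate numbers. The expression table names its 26006 loci by assembly IDs, of which 0 carry a ZNF symbol, so no level or fold change between the fractions could be given for any ZNF gene. The lists hold symbols and positions on hg19 and no expression values. No source used here gives the rule behind the lists or the libraries they rest on, and they were read as lists of level. Every result below is therefore a count of list membership or a property of the listed genes, with no test across samples. Of the marker genes of the labelled cell type, the epithelial keratins KRT8 and KRT18, the squamous keratin KRT17 and CDKN2A were on the high list. KRT5 was on the low list, and KRT14, TP63, KRT19, EPCAM and CDH1 were on neither. The leukocyte, endothelial and fibroblast markers gave 0 high and 7 low genes of 9.

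The sequences around the starts of 7 ZNF genes of chromosome 19 show the setting in which neighbours stood on opposite lists. ZNF317, ZNF146 and ZNF83 were the high genes of the chromosome, and ZNF560, ZNF585B and ZNF578 were the low genes with a sequence window whose starts lay closest to them. ZNF208 was the low gene with the most fingers in the largest cluster. Each window runs from 250 bases before to 50 bases after a gene start in RefSeq, 5′ to 3′ on the gene's strand, and capitals mark every CG dinucleotide, the site of DNA methylation. Where a gene has several windows, the one with the most CG is shown.
ZNF317 (high list, GRCh38.p14 chr19:9140147-9140446, plus strand): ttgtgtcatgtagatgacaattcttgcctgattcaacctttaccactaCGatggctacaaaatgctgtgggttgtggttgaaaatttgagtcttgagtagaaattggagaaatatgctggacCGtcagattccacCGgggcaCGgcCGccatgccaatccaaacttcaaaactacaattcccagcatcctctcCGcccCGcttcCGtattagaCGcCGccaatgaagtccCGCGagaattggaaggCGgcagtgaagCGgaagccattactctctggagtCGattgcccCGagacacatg
ZNF560 (low list, GRCh38.p14 chr19:9498567-9498866, minus strand): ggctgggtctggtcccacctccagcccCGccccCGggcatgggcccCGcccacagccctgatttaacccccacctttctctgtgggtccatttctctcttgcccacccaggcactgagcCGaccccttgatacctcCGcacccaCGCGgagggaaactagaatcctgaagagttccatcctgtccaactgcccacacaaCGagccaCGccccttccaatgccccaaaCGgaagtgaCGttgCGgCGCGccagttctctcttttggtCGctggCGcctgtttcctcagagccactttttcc
ZNF146 (high list, GRCh38.p14 chr19:36214856-36215155, plus strand): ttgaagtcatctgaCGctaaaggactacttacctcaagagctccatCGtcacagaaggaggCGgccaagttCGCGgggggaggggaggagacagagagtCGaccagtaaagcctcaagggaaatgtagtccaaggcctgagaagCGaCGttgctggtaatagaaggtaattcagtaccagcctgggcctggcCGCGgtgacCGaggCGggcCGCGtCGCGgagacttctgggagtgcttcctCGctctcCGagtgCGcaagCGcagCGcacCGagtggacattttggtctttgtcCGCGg
ZNF585B (low list, GRCh38.p14 chr19:37210487-37210786, minus strand): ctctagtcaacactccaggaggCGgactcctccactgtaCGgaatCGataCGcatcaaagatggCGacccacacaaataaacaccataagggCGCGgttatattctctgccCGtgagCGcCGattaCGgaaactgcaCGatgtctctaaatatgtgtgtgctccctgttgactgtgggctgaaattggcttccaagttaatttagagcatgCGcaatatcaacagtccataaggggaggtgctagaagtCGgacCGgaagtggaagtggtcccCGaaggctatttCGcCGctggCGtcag
ZNF83 (high list, GRCh38.p14 chr19:52690447-52690746, minus strand): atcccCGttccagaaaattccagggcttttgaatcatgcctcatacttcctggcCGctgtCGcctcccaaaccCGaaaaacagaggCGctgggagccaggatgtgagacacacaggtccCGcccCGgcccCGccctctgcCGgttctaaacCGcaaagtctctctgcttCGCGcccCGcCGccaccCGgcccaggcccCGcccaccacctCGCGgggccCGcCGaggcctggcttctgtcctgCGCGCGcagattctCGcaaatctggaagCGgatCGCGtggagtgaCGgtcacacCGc
ZNF578 (low list, GRCh38.p14 chr19:52453303-52453602, plus strand): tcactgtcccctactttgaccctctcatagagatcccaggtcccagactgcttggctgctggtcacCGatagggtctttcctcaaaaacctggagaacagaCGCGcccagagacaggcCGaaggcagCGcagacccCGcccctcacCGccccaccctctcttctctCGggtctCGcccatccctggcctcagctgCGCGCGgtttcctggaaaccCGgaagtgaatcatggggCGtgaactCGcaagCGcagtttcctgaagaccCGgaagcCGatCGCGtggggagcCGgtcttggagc
ZNF208 (low list, GRCh38.p14 chr19:22010894-22011193, minus strand): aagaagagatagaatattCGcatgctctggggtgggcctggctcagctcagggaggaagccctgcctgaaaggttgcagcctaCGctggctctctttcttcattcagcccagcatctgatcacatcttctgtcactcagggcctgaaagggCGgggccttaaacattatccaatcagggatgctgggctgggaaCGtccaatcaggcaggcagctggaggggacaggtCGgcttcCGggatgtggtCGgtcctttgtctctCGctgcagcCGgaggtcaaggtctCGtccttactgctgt
In the first pair the windows held 16 CG in ZNF317 on the high list and 16 in ZNF560 on the low list. The others held 24 in ZNF146 on the high list against 19 in ZNF585B on the low list, and 29 in ZNF83 on the high list against 21 in ZNF578 on the low list. The window of ZNF208 held 10.

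Listed ZNF genes were mostly on the low list. The high list held 26.4% of the 121 listed ZNF genes, against 50.6% of all 8942 genes that stood on 1 list only. By the same count the low list held 89 ZNF genes, against a background of 49.4% of all listed genes. Among listed protein coding genes alone 54.1% were high and 45.9% low. Without olfactory receptor, keratin associated, beta defensin and LINC genes, 0 of which were high, the background was 54.4% high and 45.6% low. RefSeq holds 517 protein coding genes with ZNF symbols, of which 30 (5.80%) were on the high list, 81 (15.7%) on the low list and 406 (78.5%) on neither. Most of the family was thus described by neither list. Of the 121 members 114 are protein coding in RefSeq, 4 are antisense RNAs and 3 are transcribed pseudogenes, and all 7 non-coding members were on the low list. Over all listed genes, 4475 of 4527 high and 3793 of 4415 low ones were matched as protein coding. Listed genes outside that class were thus mostly low in general, and the 7 members are not particular in this.

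The low ZNF genes were concentrated on chromosome 19, and most of the high ones lay elsewhere. On chromosome 19 the high list held 3 ZNF genes and the low list 59, a share of 4.84% on the high list. On all other chromosomes together the high list held 29 and the low list 30, a share of 49.2%. Among genes that are not ZNF the shares were close to each other: 246 of 483 listed on chromosome 19 were high (50.9%), against 4249 of 8338 on the other chromosomes (51%). Against all protein coding ZNF genes in RefSeq, 1.20% of the 250 on chromosome 19 and 10.1% of the 267 elsewhere were high, and 22.4% on chromosome 19 and 9.36% elsewhere were low. Chromosome 19 holds 48.4% of the protein coding ZNF genes of RefSeq, 9.38% of the listed ZNF genes on the high list and 66.3% of those on the low list.

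**Figure D1:**
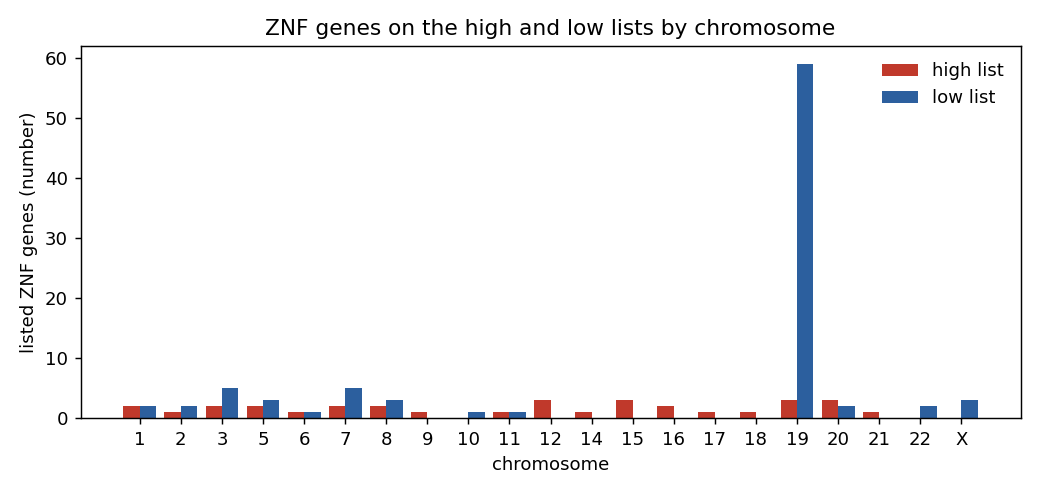
Number of listed ZNF genes per chromosome (vertical axis), high (left bar of each pair) and low (right bar), for the 21 chromosomes that hold any. Chromosome 19 holds 3 high and 59 low genes, while no other chromosome holds more than 5 on either list.

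The short arm of chromosome 19 carried 1 ZNF gene of the high list and 33 of the low list (2.94% high), although 59.4% of the 212 other listed genes of that arm were on the high list. The long arm carried 2 high and 26 low ZNF genes (7.14% high), beside 44.3% on the high list among its 271 other listed genes. The 2 arms thus gave low shares of high ZNF genes on backgrounds that lay on either side of that of all listed genes.

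Listed ZNF genes on chromosome 19 fell into 6 clusters, taken as runs in which each start lay within 1000000 bases of the one before, and 3 single genes. The clusters held 3 high and 56 low genes. Between the first and last listed gene of each cluster RefSeq places 144 protein coding ZNF genes in all, of which 3 were high, 53 low and 88 on neither list.

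**Figure D2:**
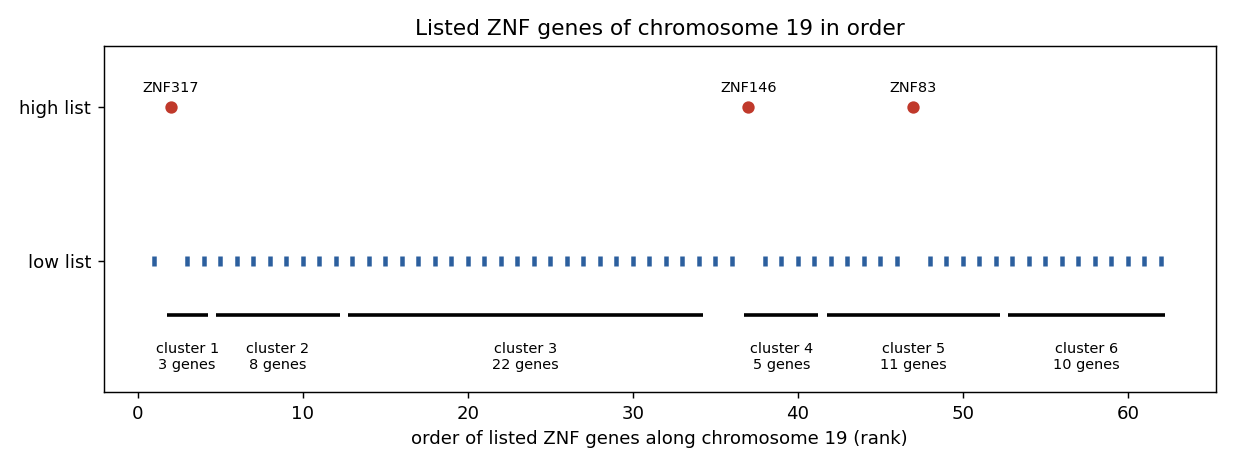
The 62 listed ZNF genes of chromosome 19 in order from the short to the long arm (horizontal axis, rank), with high list genes in the upper row, low list genes in the lower row and bars under the 6 clusters. The 3 high genes are parted by runs of 34 and 9 low genes.

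The first cluster (hg19 chromosome 19, 9251056 to 9811452) held ZNF317 on the high list and ZNF560 and ZNF812 on the low list. ZNF317 encodes a KRAB protein, and its locus (9251056 to 9274090) ended 303 kb before ZNF560 began (9577031 to 9609279). On its other side the nearest low ZNF gene was ZNF556 (2867333 to 2878501), a single gene 6373 kb away. Of 11 protein coding ZNF genes that RefSeq places from ZNF317 on to the last gene, 9 were on neither list. This was the cluster with the smallest share of its RefSeq genes on the low list, 9.09%.

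The second cluster (11959576 to 12476719) was listed on the low side alone, with ZNF439, ZNF69, ZNF433, ZNF878, ZNF844, ZNF788, ZNF563 and ZNF442. ZNF439 (11959576 to 11980306) and ZNF442 (12460185 to 12476719) bound it. The 8 genes lay within 0.517 Mb, and 7 of 13 protein coding ZNF genes in that stretch were low and 6 on neither list.

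The third cluster was the largest, with 22 low genes and 0 high genes over 4.49 Mb beside the centromere (19821282 to 24312643). From ZNF14 (19821282 to 19843921) it ran through ZNF682, ZNF90, ZNF486, ZNF737, ZNF626, ZNF85, ZNF493, ZNF429, ZNF43, ZNF208, ZNF257, ZNF676, ZNF729, ZNF98, ZNF492, ZNF99, ZNF730, ZNF91, ZNF681 and ZNF726 to ZNF254 (24216276 to 24312643). ZNF91, a known repressor of SVA retrotransposons, lay at 23540501 to 23578269. RefSeq places 36 protein coding ZNF genes here, and 61.1% of them were low, the highest share among the 6 clusters. An unbroken stretch of 8 RefSeq ZNF genes from ZNF43 to ZNF99 was all low.

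The fourth cluster (36705504 to 38183216) opened with ZNF146 on the high list and went on with ZNF585B, ZNF570, ZNF793 and ZNF781 on the low list. ZNF146, also called OZF, encodes a protein made almost wholly of fingers. Its locus (36705504 to 36729673) lay 946 kb before ZNF585B (37675722 to 37701451), and the nearest low ZNF gene on its other side was ZNF30 (35417807 to 35436074), 1269 kb away. The last gene, ZNF781, lay at 38158650 to 38183216. Of 23 protein coding ZNF genes in the cluster 19 were on neither list.

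The fifth cluster (52839498 to 53758126) held ZNF83 on the high list among 10 low genes. Before it stood ZNF610, ZNF880, ZNF528, ZNF534 and ZNF578, and after it ZNF160, ZNF415, ZNF347, ZNF665 and ZNF677. The cluster ran from ZNF610 (52839498 to 52870375) to ZNF677 (53727087 to 53758126). ZNF83 (53115620 to 53193741) began 95.5 kb after ZNF578 ended (52956829 to 53020131) and ended 376 kb before ZNF160 began (53569867 to 53606687). The distance to ZNF578 was the shortest between a high and a low ZNF gene on chromosome 19.

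The sixth cluster (56894648 to 58581123) held 10 low genes and 0 high genes: ZNF582, ZNF583, ZNF667, ZNF471, ZNF470, ZNF835, ZNF549, ZNF418, ZNF256 and ZNF135. ZNF582, whose methylation is used as a marker in cervical cancer screening, opened it (56894648 to 56904889), and ZNF135 closed it (58570607 to 58581123). RefSeq places 40 protein coding ZNF genes between them, and 30 were on neither list. The single genes were ZNF556, ZNF30 and ZNF536 (30863328 to 31048965), and all 3 were low. ZNF536 is known from neurons.

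**Figure D3:**
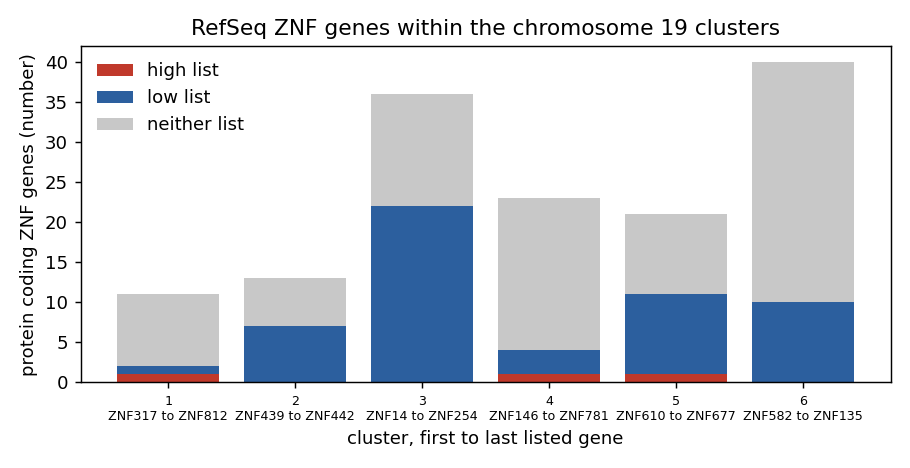
Protein coding ZNF genes that RefSeq places between the first and last listed gene of each chromosome 19 cluster (bars, number of genes), split into high list, low list and neither list. The third cluster has the most low genes, 22 of 36, and the sixth the most on neither list, 30 of 40.

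Large stretches of the chromosome were on neither list. In RefSeq order, 49 protein coding ZNF genes from ZNF540 to ZNF480 were unlisted without a break. The stretch begins within the fourth cluster, after ZNF793, passes ZNF781, which is low but a pseudogene in RefSeq and so not counted in that order, and ends just before the fifth. The next longest unlisted stretches held 16 genes from ZNF845 to ZNF444 and 15 from ZNF550 to ZNF417.

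Listed genes under other names inside the 6 clusters were also low. There were 17 entries, 0 high and 17 low, of which 1 lies within the ZNF788 locus and may be the same gene under a clone name. The other 16 were all low, against 50.9% on the high list for all listed chromosome 19 genes that are not ZNF. They included the olfactory receptor genes OR7D2, OR7D4 and OR7E24, the related zinc finger genes ZFP82, ZFP28, ZIM2, ZIM3 and ZSCAN1, and USP29, DUXA and MIMT1 of the sixth cluster. The rest were AC006271.2, AC011467.1, AC024563.1, AC092329.1 and AC004696.1, which carry clone names. Olfactory receptor genes gave 0 high genes anywhere, and the related zinc finger families 0 high and 7 low on chromosome 19. The 50.9% is over genes of all kinds, and no background of like genes was counted. The strands were mixed, with 29 listed ZNF genes of the clusters on the plus strand and 30 on the minus strand.

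Neighbouring ZNF genes of chromosome 19 were mostly both low, as were most of its listed ZNF genes. There the nearest listed ZNF gene was low for 3 of 3 high genes, and low for 57 and high for 2 of 59 low genes, where 59 of all 62 listed were low. On the other chromosomes the nearest listed ZNF gene was high for 15 and low for 9 of the 24 high genes that had one, and high for 10 and low for 19 of 29 low genes. The nearest listed gene that is not ZNF was on the high list for 25 of 32 high ZNF genes (78.1%) and for 30 of 89 low ZNF genes (33.7%). Among the low genes this was 14 of 59 on chromosome 19 (23.7%) and 16 of 30 elsewhere (53.3%), the second near the 50.6% of all listed genes. Members of a cluster often shared the same nearest gene, so these are not counts of separate neighbours. In the third cluster ATP13A1, on the high list, was nearest to all members from ZNF14 to ZNF85. AC011467.1, on the low list, was nearest to all from ZNF493 to ZNF492. The low entry AC022415.1 (12203078 to 12225491), nearest to all 8 members of the second cluster, lies within the ZNF788 locus on the same strand, and without it the counts were 16 of 59 on chromosome 19 (27.1%) and 32 of 89 in all (36%). The median distance to the nearest listed ZNF gene was 326 kb for high and 81.9 kb for low genes of chromosome 19, and 15746 kb for high and 1534 kb for low genes elsewhere.

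The 29 high ZNF genes of other chromosomes lay scattered over 17 chromosomes, and many are known for roles outside the KRAB system. Several act on RNA or the ribosome. ZNF598 on chromosome 16 is the ubiquitin ligase that marks stalled ribosomes, ZNF622 on chromosome 5 takes part in maturation of the large ribosomal subunit, and ZNF326 on chromosome 1 belongs to a complex that couples transcription to splicing. ZNF207 on chromosome 17, known as BuGZ, acts at spindles and kinetochores.

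Others among the high genes act on chromatin or as classical transcription factors. ZNF638 on chromosome 2, or NP220, takes part in silencing unintegrated retroviral DNA. ZNF644 on chromosome 1 is a partner of the H3K9 methyltransferases EHMT1 and EHMT2. ZNF217 on chromosome 20 is an oncogene amplified in carcinomas, ZNF335 on the same chromosome joins an H3K4 methyltransferase complex, and ZNF410 on chromosome 14 activates CHD4. ZNF451 on chromosome 6 is a SUMO ligase. ZNF445 on chromosome 3 maintains imprints and is a KRAB protein. ZNF148 on chromosome 3, or ZBP-89, is a transcription factor of GC-rich promoters, and ZNF384 on chromosome 12 is a partner in leukaemia fusions. ZNF259 on chromosome 11 is now named ZPR1 and ZNF295 on chromosome 21 ZBTB21, so neither counts among the ZNF symbols of RefSeq. The remaining high genes were ZNF24 on chromosome 18, ZNF282 on chromosome 7, ZNF664 and ZNF84 on chromosome 12, ZNF770, ZNF609 and ZNF592 on chromosome 15, ZNF276 on chromosome 16, ZNF512B on chromosome 20, ZNF131 on chromosome 5, ZNF655 on chromosome 7, ZNF623 and ZNF7 on chromosome 8 and ZNF618 on chromosome 9. Chromosomes 12 and 15 each held 3 high and 0 low ZNF genes, beside 59.7% and 69.7% on the high list among their other listed genes.

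Low ZNF genes of other chromosomes numbered 30, and several came as neighbours or near relatives. Chromosome 7 held ZNF479 (57187321 to 57207571), ZNF716 (57509883 to 57533265), ZNF727 (63505821 to 63538927) and ZNF679 (63688852 to 63727309) on the low list, with ZNF804B. Its 2 high genes were ZNF655 (99156029 to 99174076) and ZNF282 (148892554 to 148923339). Chromosome 8 held ZNF705G, ZNF705B and ZNF705D, copies of 1 gene, against ZNF623 and ZNF7 on the high list. ZNF385B on chromosome 2 and ZNF385D on chromosome 3 are paralogs and both were low, as were ZNF804A on chromosome 2 and ZNF804B. ZNF608 on chromosome 5 was low while its paralog ZNF609 was high.

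Other low genes are known for restricted expression. ZNF683 on chromosome 1, or HOBIT, acts in lymphocytes, ZNF366 on chromosome 5 in dendritic cells, and ZNF645 on chromosome X in testis. ZNF648 on chromosome 1, ZNF80, ZNF662, ZNF385D-AS1 and ZNF385D-AS2 on chromosome 3, ZNF454 on chromosome 5, ZNF334 and ZNF831 on chromosome 20, and ZNF157 and ZNF630-AS1 on chromosome X were the other low genes of chromosomes with at least 3 listed members. A further 5 low genes lay on chromosomes 6, 10, 11 and 22. Chromosome X held 0 high and 3 low ZNF genes, beside 28.9% on the high list among its other listed genes.

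A KRAB domain was called in most low ZNF genes and in few high ones. In the longest coding sequence of each gene, which 115 members had in GENCODE release 29, a KRAB A box was called in 3 of 32 high genes (9.38%) and in 63 of 83 low genes (75.9%). The 3 high genes were ZNF317, ZNF7 and ZNF84. On chromosome 19 the box was called in 1 of 3 high and 52 of 57 low genes, and on the other chromosomes in 2 of 29 high and 11 of 26 low genes. The call looked for conserved letters of the box near the start of the protein and misses variants, since ZNF445, ZNF282 and ZNF471 are known KRAB proteins and were not called. It took either of 2 patterns, and was also made in CBLC and IL12RB1, listed genes of chromosome 19 with 0 fingers. With both patterns required, 2 of 32 high and 51 of 83 low genes were called.

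Set out by domain, 1.89% of 53 called KRAB genes of chromosome 19 were on the high list, against 15.4% of 13 on other chromosomes. Among genes without a called box, 2 of 7 on chromosome 19 (28.6%) and 27 of 42 elsewhere (64.3%) were on the high list. The high genes without a box on chromosome 19 were ZNF146 and ZNF83, and the low ones ZNF492, ZNF536, ZNF781, ZNF471 and ZNF835. Chromosome 19 thus had the lower share in both classes, on 13 and 7 genes in the smaller groups.

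Within chromosome 19, and within the other chromosomes, the high and low genes had close medians of C2H2 fingers. The median was 13 for the 3 high and 14 for the 57 low coding genes of chromosome 19, and 5 for the 29 high and 5 for the 26 low genes elsewhere. Over all chromosomes the median was 6 for high and 12 for low genes. ZNF84 had the most fingers of the high genes, 19, and ZNF259 the fewest, 0. ZNF208 had the most of the low genes, 36, followed by ZNF729 with 34 and ZNF91 with 31, all of the third cluster, and ZNF645 the fewest, 0. High genes elsewhere made longer proteins, with a median of 697 residues against 512 for low genes elsewhere, while carrying as many fingers.

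**Figure D4:**
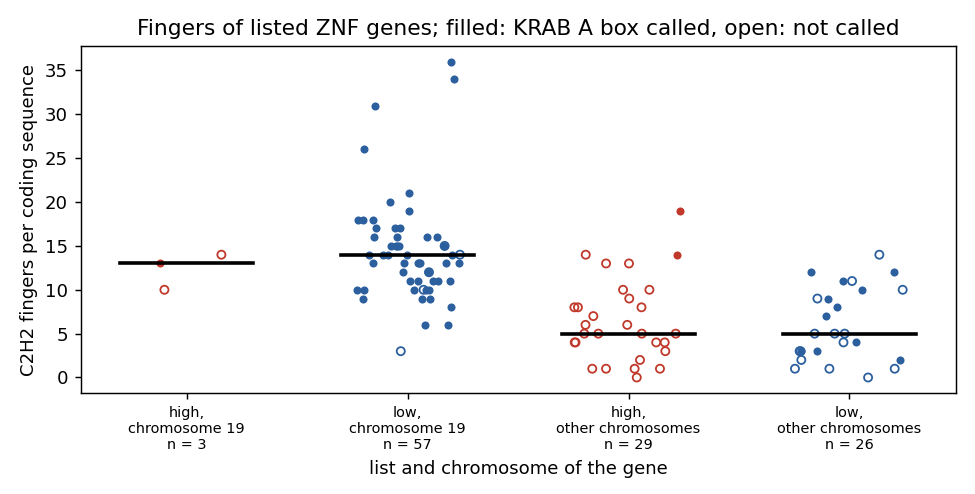
C2H2 fingers per longest coding sequence (vertical axis) for listed ZNF genes by list and chromosome, with each point 1 gene, filled where a KRAB A box was called, and lines at the medians. Medians are 13 (high) and 14 (low) on chromosome 19 and 5 (high) and 5 (low) elsewhere, and filled points prevail among the low genes of chromosome 19.

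Loci were somewhat longer for high than for low ZNF genes, with medians of 33.6 kb for high and 25.7 kb for low genes. On chromosome 19 the medians were 24.2 kb for high and 25.04 kb for low genes, and on other chromosomes 36.4 kb for high and 29.2 kb for low genes. The spans overlapped widely, from 9.95 to 187 kb for high and from 1.51 kb (ZNF645) to 578 kb (ZNF804B) for low genes. Among listed genes that are not ZNF the medians were 33.2 kb for high and 10.5 kb for low genes.

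Genes with stretches of sequence in common can share reads, which bears on where a counter puts a gene. The windows compared were 50 bases of the chosen transcript. A median of 1.32% for high and 3.20% for low ZNF genes also occurred, on either strand, in transcripts of another gene. The count does not tell copies of a gene from genes that overlap it. At least 10% was shared in 8 of 32 high and 21 of 89 low genes. Among chromosome 19 genes that are not ZNF it was shared in 71 of 243 high and 62 of 231 low genes. ZNF705B shared 82.7% and ZNF98 58.1% among the low genes, and ZNF410 83.5% among the high genes. Of the low genes printed above beside a high gene, ZNF578 shared 44.0%, ZNF585B 26.6% and ZNF560 0%. How reads from shared stretches were counted is not given, so the place on a list of genes with such stretches is uncertain. Without all genes at or above 10% the share on the high list was 26.1%, against 26.4% with them.

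RefSeq windows at the gene start were matched for 94 of the 121 members (77.7%), too few for a comparison of all members, since only 66 of 89 low genes had one. On chromosome 19 all 3 high and 48 of 59 low genes had a window. CG dinucleotides per window, averaged over the windows of a gene, numbered 16 in ZNF317, 24 in ZNF146 and 25.5 in ZNF83 of the high list. The low genes of chromosome 19 spanned 8 to 42 with a median of 16, so the high genes lay inside the range of the low ones. The 25 high genes elsewhere with a window spanned 20.5 to 51 with a median of 32, and the 27305 genes of the whole table had a median of 14. Genes of the high list that are not ZNF had a median of 27 (3794 genes), and 28.7 on chromosome 19 (209 genes), so the level of the high ZNF genes elsewhere was near that of the high list as a whole. Low genes that are not ZNF, with a median of 5, and low ZNF genes elsewhere, with 7.5, had a window for too few members to be compared.

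The low genes of the long arm of chromosome 19 had a higher median of CG than those of the short arm. The median was 11 on the short arm (8 to 22, 27 genes) and 25 on the long arm (13 to 42, 21 genes). By cluster the medians over all members with a window were 16, 14, 10, 19.5, 21 and 26.5 from the first to the sixth. The long arm's low genes thus had a median close to the values of the high genes ZNF146 and ZNF83.

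**Figure D5:**
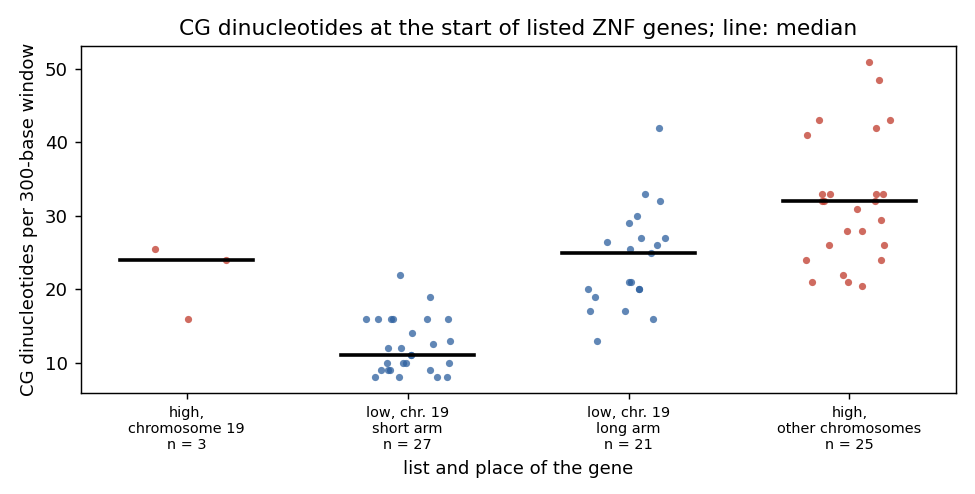
CG dinucleotides per 300-base window (vertical axis, mean over a gene's windows) for high genes of chromosome 19, low genes of its short and long arm, and high genes elsewhere, with each point 1 gene and lines at the medians of 24, 11, 25 and 32. Low genes elsewhere are left out because too few had a window.

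The windows were searched on both strands for 6 short motifs. The ETS site CCGGAAG was in the windows of 12 of 28 high ZNF genes (42.9%) and of 27 of 48 low genes of chromosome 19 (56.2%), against 12.2% of all genes in the table. Of the low genes elsewhere only 18 of 30 had a window, too few for a comparison, and 2 of the 18 (11.1%) held it. The GC box was in 33.3% of those 18 and the TATA box in 16.7%. Among the windows printed above the ETS site occurred 2 times in ZNF578, 1 time in ZNF585B and 1 time in ZNF208. It occurred 0 times in the low gene ZNF560 and in the high genes ZNF317, ZNF146 and ZNF83. The GC box GGGCGG was in 78.6% of high genes, 81.2% of low genes of chromosome 19 and 48.3% of all genes. The TATA box TATAAA was in 7.14% of high genes, 2.08% of low genes of chromosome 19 and 14.0% of all genes. The NRF1 core TGCGCA was in 10.7% of high genes, 25% of those low genes and 9.76% of all. The YY1 core AAGATGG was in 7.14% of high genes, 8.33% of those low genes and 7.11% of all. The cyclic AMP element TGACGTCA was in 7.14% of high genes, 0% of those low genes and 2.25% of all. The medians of CG per window were 30.2 in high ZNF genes, 16 in low ZNF genes of chromosome 19 and 14 in the table. Of these groups the low genes of chromosome 19 had the highest ETS, GC box, NRF1 and YY1 shares, in part on few genes. YY1 was in 4 of 48 of them and in 2 of 28 high genes, and the GC box in 39 of 48 and 22 of 28. The high genes here are of all chromosomes, so the groups are not alike. The part of CG content in these shares was not tested. Matches of letters are not bound sites.

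Zinc finger genes of related families with other names were listed alongside. Symbols starting with ZFP, ZSCAN, ZKSCAN, ZBTB, ZIK or ZIM gave 12 high and 16 low genes (42.9% high). On chromosome 19 they gave 0 high and 7 low, namely ZFP28, ZFP82, ZIM2, ZIM3, ZSCAN1, ZSCAN18 and ZSCAN5B, and on other chromosomes 12 high and 9 low (57.1% high). The ZBTB genes, whose BTB domain recruits other corepressors, gave 7 high, among them ZBTB33, known as Kaiso, and 5 low, of which 4 were antisense RNAs of ZBTB20. ZFP57 and ZFP42 (REX1), which act in imprinting and in pluripotent cells, were low.

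The genes of a set written by hand around KRAB silencing, which also holds general chromatin genes, stood on the high list wherever they were listed. The set was chosen with earlier results of these data known, and no other set of chromatin genes was counted beside it. Its share therefore cannot be read as particular to KRAB silencing. Of 35 such genes 26 were high, 0 low and 9 on neither list, so that all 26 listed ones were high, against 54.1% of listed protein coding genes. TRIM28, the corepressor itself, was high together with ATF7IP, which stabilises SETDB1. Among H3K9 methyltransferases EHMT1 and EHMT2 were high, and SETDB1, SETDB2, SUV39H1 and SUV39H2 were on neither list. HP1 proteins and readers gave 7 of 9 high, with CBX1, CBX3 and CBX5 and the HUSH members TASOR and PPHLN1, while MPHOSPH8 was on neither. Deacetylases and remodellers gave 11 of 11 high, including HDAC1, HDAC2, CHD3 and CHD4. DNA methylation genes gave DNMT1, UHRF1, MBD1 and MBD2 high, with DNMT3A and DNMT3B on neither.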

How the data were processed

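Per the labels' protocols, cells from a transwell set-up of 6 wells were scraped and pooled 10 hours after seeding, and RNA was made into libraries with a TruSeq kit. Build hg19, Cuffdiff, Cufflinks 2.2.1, TopHat2 and CASAVA 1.8.2 were used per the submitters' processing notes, which hold no settings. Per the file headers, the deposited Cuffdiff table gives estimated counts of fragments per locus and library, which were used for depth only. The 2 deposited gene lists hold symbols and positions with no values. Whether reads were counted by strand is not stated, so antisense genes may share reads with their partners.

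Members were counted by unique symbol in Python 3.11.15 with pandas 2.3.3. The 4 symbols on both lists, none of them ZNF, were left out. Symbols were matched to RefSeq (GRCh38.p14) by name or synonym, and all 121 members matched, 5 of them by an older name. RefSeq served for names, gene order and start windows, and no position was converted between builds. Chromosome arms were split at hg19 base 26000000.

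Coding sequences of GENCODE release 29 were translated to count fingers and KRAB boxes, in place of a protein table. A finger was a cysteine, 2 to 4 residues, a cysteine, 12 residues, a histidine, 3 to 5 residues and a histidine. A KRAB A box was called in the first 250 residues from DV, 3 to 9 residues, W, 2 residues and L, or from LY, 2 residues, V, 2 residues and E. The finger count and the cluster rule were tested on simulated data.

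Genes were named by a rule: all high members, all low members of chromosome 19, and low members of chromosomes with at least 3 listed ZNF genes; ZNF729, AC022415.1 and the order of unlisted genes were singled out after the values were seen. The members and lists were chosen with earlier results of these data known. Genes are not replicates, and the lists hold no values per sample, so shares are given as descriptions without a test.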

Additional observations from a re-analysis of the deposited data

How the results depend on the processing

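No paired analysis was possible because the lists hold no values per library, so no library could be left out or blocked either. Of 24 alternatives 18 moved the value by less than its spread or counting interval, and 8 of the 24 were chosen after seeing the data. The 18 include 3 on the CG comparison of high and low genes. That comparison is void over all members, and on chromosome 19 alone, with 3 high genes, the medians differed by 8. The 18 also include the median finger difference between high and low genes, which was -6 over all chromosomes and 0 without chromosome 19. That change was smaller than the SD over genes, yet the difference disappears in it. The share of ZNF genes on the high list was 26.4%, and 5.80% when counted over all protein coding ZNF genes of RefSeq, since unlisted genes enter the denominator. The difference in that share between chromosome 19 and other chromosomes was -44.3 percentage points. It was -8.91 over all RefSeq genes, for the same reason, and -13.5 among genes with a called KRAB box, where the cause was not tested. Of the 115 members with another listed ZNF gene on their chromosome, 79.1% had the nearest one on the same list. Of all 121 members 89 were low, so much agreement comes from composition alone. On chromosome 19, where 59 of all 62 listed ZNF genes were low, the share was 91.9%. Elsewhere the nearest one was on the same list for 15 of 24 high and 19 of 29 low genes. The difference between high and low genes in called KRAB boxes was -66.5 percentage points, and -35.4 without chromosome 19; the cause was not tested. The background without olfactory receptor, keratin associated, beta defensin and LINC genes was 54.4% high, against 50.6%. A gap of 500000 bases gave 7 clusters and left ZNF146 single, so that the clusters held 2 high genes, and one of 2000000 gave 6 clusters with 3 high genes. Depth behind the lists could not be tied to any ZNF gene.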
